A study of Mus musculus with 6 samples.

Results

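The interferon response and MHC class I module is a list of 40 mouse genes that cells switch on when interferon binds its receptors, together with the genes of class I antigen presentation. Its members were chosen by name, as the non-control probes whose transcript accession belongs to the gene in RefSeq. Of the 40 genes, 38 were measured, among 22810 genes tested. Mx1 and Mx2, which encode antiviral dynamin-like GTPases, had no matching probe and were not analysed here. The samples were total RNA of whole liver from untreated 6-week-old male mice, with 3 samples labelled Sec15 KO and 3 labelled WT, each on its own single-colour Cy3 array. Sec15 is a subunit of the exocyst, which tethers vesicles at the plasma membrane, and the series as titled concerns the traffic of STAT3 and blood stem cell fate. The labels name neither the Sec15 gene that was knocked out, nor the deleted part, the strain or any Cre driver. They number the samples but do not state separate animals, so each p-value reflects sample-to-sample spread that could be technical in part.

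Interferons are secreted proteins that warn cells of infection. Type I interferons signal through IFNAR to a complex that holds STAT2 and IRF9 and binds the interferon-stimulated response element in DNA, and type II interferon signals through IFNGR. The induced proteins block viral RNA and protein, sense foreign nucleic acid, attack vacuoles that hold parasites, call in lymphocytes with chemokines and raise the display of peptides on MHC class I. In liver, hepatocytes, Kupffer cells and sinusoidal endothelial cells all carry interferon receptors, and a low tonic level of interferon-stimulated transcripts is usual in uninfected tissue.

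Gene values below are log2 signals relative to the 75th percentile of the same array, so a value of 0 is a signal at that percentile. Differences are KO minus WT on the log2 scale, tested with limma and adjusted by Benjamini-Hochberg over all genes, with a threshold of 0.05. A gene past it is called higher or lower in KO. The hepatocyte markers of the labelled tissue, Alb, Ttr, Apoa1 and 7 others, were well above background on every array. Between 64.8% and 65.4% of probes were well above background on the KO arrays, against 67.3% to 70.3% on the WT arrays, and no spot was saturated. By the scan time in the file headers, KO replicate 2 and the 3 WT arrays were read in scan 1, and KO replicates 1 and 3 in scan 2. Scan 2 held no WT array, so with scan as a block the KO difference is that of KO replicate 2 from the WT mean. A call under that block thus rests on 1 KO array, and KO replicates 1 and 3 add only to the estimate of spread. Of the Sec15 genes, the Exoc6 probe was well above background on no KO array and 1 WT array, and read -3.60, -4.03 and -3.77 in KO, against -3.99, -3.93 and -3.78 in WT. The brighter Exoc6b probe read 0.14, -0.03 and -0.06 in KO, against 0.31, 0.78 and 0.55 in WT, and another Exoc6b probe was above background on no array. A probe outside the deleted part would not check the labels, and the deleted part is not given.

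Between the livers labelled Sec15 KO and WT, members were called in both directions. Rsad2, Isg15, Usp18, Oas1a, Oas2 and Ifih1 rose by 0.55 to 1.21 on the log2 scale. Tap1, Ube2l6 and Gbp2, which act in peptide transport, ISG15 conjugation and defence against vacuolar pathogens, fell. Irf7 was called lower as well, but it passed the filter on low values through its WT arrays alone and had to differ. The other 28 measured members did not pass the test. The 6 higher members were 15.8% of the 38, beside 17.4% of all genes tested called higher in KO. The 4 lower members, Irf7 included, were 10.5%, beside 12.2% of all genes called lower. Both shares lie near the background, so the counts are no result about the module. In 8 members every KO value lay above every WT value, in 4 every KO value lay below, and in 26 the groups overlapped. Over all genes those patterns held in 30.6% and 20.2%. The median difference was 0.27 over the members and 0.06 over all genes tested. Both medians depended on the scaling, at 0.08 and -0.02 with cyclic loess and 0.15 and 0.05 with quantile normalisation. With normexp they were 0.15 and 0.04, and with median centring 0.39 and 0.18. In whole liver RNA, fewer cells of a type and less RNA per cell cannot be told apart.

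**Figure D1:**
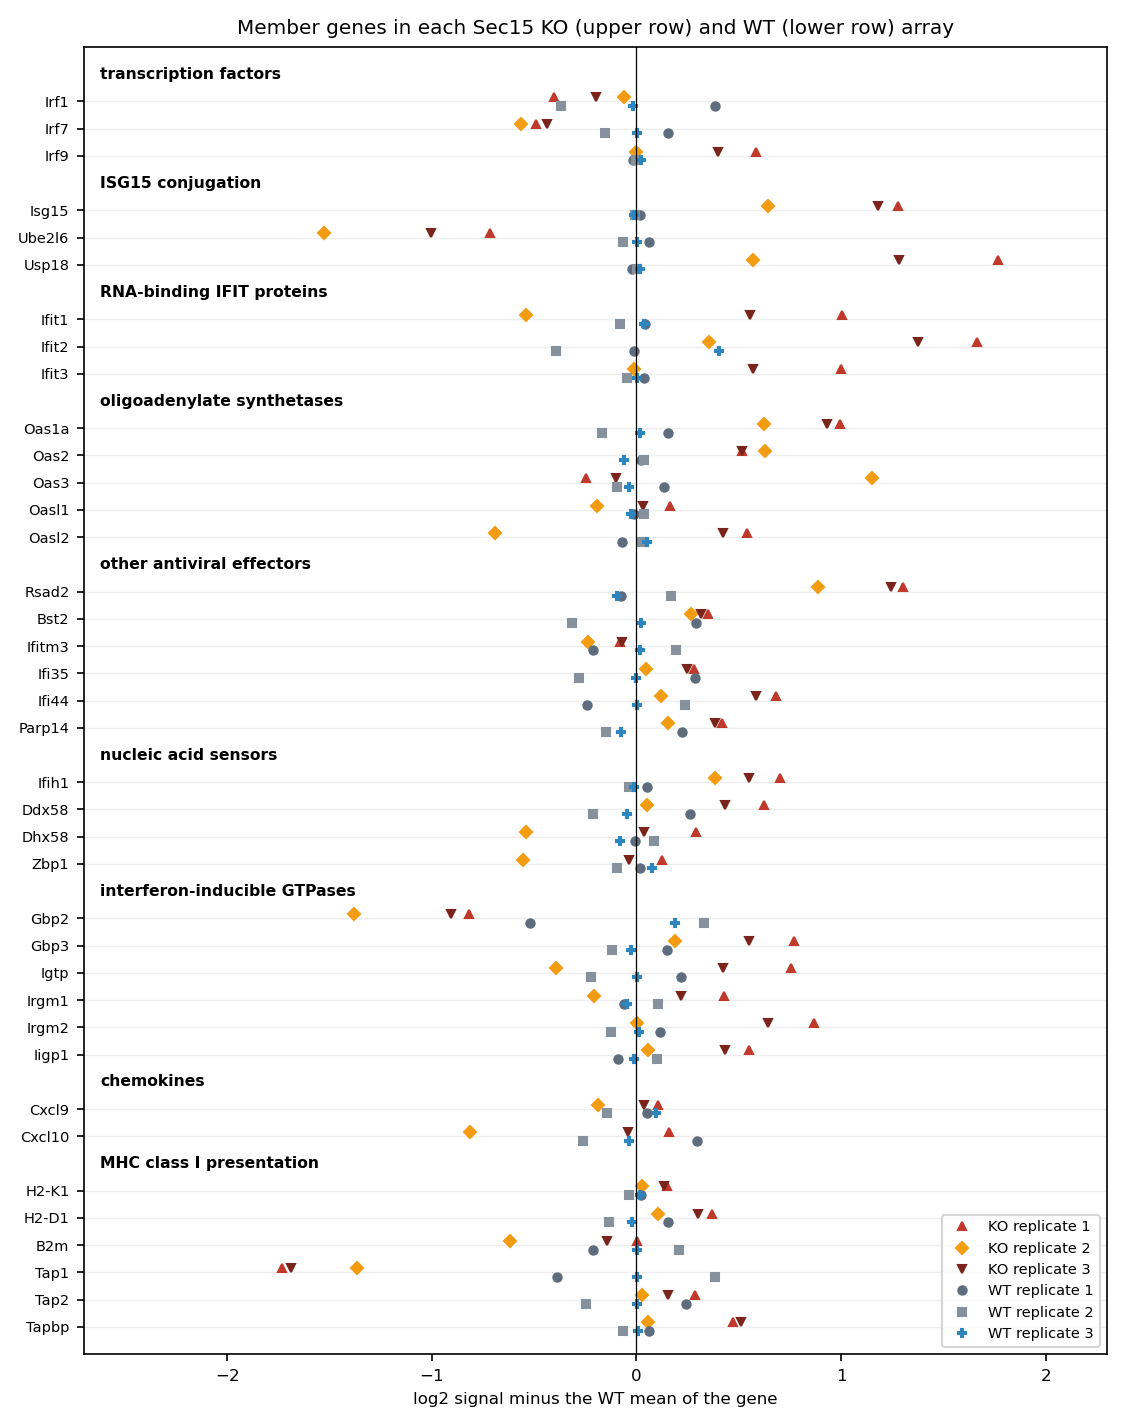
Each measured member on each array, as log2 signal minus the WT mean of that gene, grouped by role. The upper row of symbols of each gene shows the 3 KO arrays and the lower row the 3 WT arrays. KO replicate 2 (diamonds) is the lowest KO array in 34 of the 38 genes.

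The response element was looked for in the promoters of the members, since it is the DNA site that the type I interferon complex reads. Its core was searched as GAAANNGAAA on either strand, where N is any base, so that a match on the other strand reads TTTCNNTTTC. RefSeq windows of build GRCm38.p6, from 250 bases before to 50 after the transcription start, were at hand for 31 of the 40 members. The core lay in 17 of them, or 54.8%, and in 3.99% of all 27025 genes with a window. All 4 of the members with a window that were called higher held a match, as did 1 of the 4 called lower and 12 of the 23 that did not pass. The 17 members with a match had a median difference of 0.34, and the 14 without one had 0.10. For KO replicate 2 minus the WT mean, the comparison inside scan 1, those medians were 0.0028 and -0.033. A match is a description of the letters and not a measured binding site. The excerpts below show the match in 3 members that rose, Isg15, Oas1a and Rsad2, in Gbp2, which fell, and in Ifit1 and Ifit3, which did not pass. They are written on the strand of the gene with the matched letters in capitals, and overlapping matches run together.

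Isg15, chr4:156200850-156200909, minus strand, 3 overlapping matches: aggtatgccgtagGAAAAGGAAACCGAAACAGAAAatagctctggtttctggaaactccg

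Oas1a, chr5:120907526-120907564, minus strand, 2 overlapping matches: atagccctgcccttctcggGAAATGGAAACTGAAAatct

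Rsad2, chr12:26456538-26456597, minus strand, 1 match: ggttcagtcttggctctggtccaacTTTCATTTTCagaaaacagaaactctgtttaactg

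Gbp2, chr3:142620579-142620638, plus strand, 1 match: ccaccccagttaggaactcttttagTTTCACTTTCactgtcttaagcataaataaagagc

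Ifit1, chr19:34640779-34640838, plus strand, 2 matches: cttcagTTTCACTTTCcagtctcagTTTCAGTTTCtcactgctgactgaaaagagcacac

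Ifit3, chr19:34583382-34583441, plus strand, 1 match: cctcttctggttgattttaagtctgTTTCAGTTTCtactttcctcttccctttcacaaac

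The stretch of capitals in Isg15 ends 56 bases before the start and that of Oas1a 4 bases before it. In Gbp2 the gap is 49 bases, in Rsad2 110 and in Ifit3 112. The nearer match of Ifit1 ends 75 bases before the start.

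Among the transcription factors of the module, Irf7 was called lower, and Irf1 and Irf9 did not pass the test. Irf7 is the factor that drives most interferon alpha genes. Its probe, A_51_P421876, read -3.85, -3.92 and -3.79 in KO, against -3.20, -3.51 and -3.36 in WT. All 3 KO values lay below the WT values, and the probe was well above background on no KO array. The fold is therefore a lower bound, at least 1.41-fold lower in KO, with a limma adjusted p of 0.0258. That p-value supports nothing, since Irf7 had to differ. The Irf7 call was lost when KO replicate 1 was left out (limma adjusted p = 0.0727), and likewise for KO replicate 3 (0.0871) or WT replicate 3 (0.108). Its adjusted p with scan as a block was 0.0721. Under the 4 other normalisations Irf7 was not called either (limma adjusted p = 0.0626 to 0.525), and with normexp the difference was -0.06. Irf9, a DNA-binding part of the complex that type I interferons activate, read 1.91, 1.32 and 1.72 in KO, against 1.31, 1.32 and 1.35 in WT. KO replicates 1 and 3 stood above the tight WT values and KO replicate 2 among them, and the difference was 0.33 (SE 0.16, limma adjusted p = 0.17). Irf1, which takes up the signal of type II interferon, read 1.89, 2.23 and 2.10 in KO, against 2.67, 1.93 and 2.28 in WT. The Irf1 groups overlapped (difference -0.22, limma adjusted p = 0.441), as did those of its second probe, with a difference of -0.59.

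The ISG15 genes moved in opposite directions. Isg15 encodes a ubiquitin-like protein that is attached to other proteins, Ube2l6 its conjugating enzyme, and Usp18 the protease that removes it and also damps signalling at IFNAR. Isg15, by probe A_55_P2103698, read 2.52, 1.88 and 2.42 in KO, against 1.26, 1.23 and 1.23 in WT. The WT arrays spanned 0.03 and all KO arrays lay above them, with KO replicate 2 the nearest. The difference was 1.03 (SE 0.18, 2.05-fold higher in KO, limma adjusted p = 0.0143), and a second Isg15 probe gave 0.79 with all KO values above WT. Usp18 read 1.30, 0.10 and 0.82 in KO, against -0.49, -0.46 and -0.44 in WT. Here too all KO arrays lay above WT, with KO replicate 2 the nearest, and the difference over all arrays was 1.21 (SE 0.30, 2.31-fold higher in KO, limma adjusted p = 0.0313). Ube2l6 read 0.02, -0.79 and -0.27 in KO, against 0.80, 0.67 and 0.74 in WT. All its KO arrays lay below WT, and KO replicate 2 was the lowest of them. Its difference was -1.08 (SE 0.21, 2.12-fold lower in KO, limma adjusted p = 0.0183).

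Single arrays and the scan bore on these 3 calls. The Isg15 call was lost when KO replicate 3 was left out (limma adjusted p = 0.0659), and likewise for WT replicate 2 (0.0525) or WT replicate 3 (0.0692), as was the Ube2l6 call for the same arrays (0.0695, 0.0593 and 0.0786). The Usp18 call held only without KO replicate 2, where the difference was 1.52 and the KO and WT arrays share no scan. It was lost in each of the other 5 fits that left out an array, with limma adjusted p-values between 0.0606 and 0.106. Inside scan 1 the sole KO array differed from the WT mean by 0.64 for Isg15, 0.57 for Usp18 and -1.53 for Ube2l6. With scan as a block these same differences had limma adjusted p-values of 0.034 for Isg15, 0.124 for Usp18 and 0.023 for Ube2l6.

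No gene of the IFIT family passed the test. These proteins bind viral RNA, Ifit1 at its cap. Ifit1 read 0.20, -1.34 and -0.25 in KO, against -0.76, -0.88 and -0.76 in WT. KO replicates 1 and 3 lay above all WT arrays and KO replicate 2 below all of them, and the difference was 0.34 (SE 0.39, limma adjusted p = 0.514). Ifit3 read 1.35, 0.33 and 0.92 in KO, against 0.38, 0.30 and 0.35 in WT, with KO replicate 2 inside the WT range. Its difference was 0.52 (SE 0.25, limma adjusted p = 0.161). Ifit2 read -2.67, -3.98 and -2.96 in KO, against -4.35, -4.72 and -3.93 in WT, and was well above background on 2 KO arrays and 1 WT array. The groups overlapped by KO replicate 2 and WT replicate 3, and the difference of 1.13 (SE 0.38) had a limma adjusted p of 0.0705. Without KO replicate 2 all of the family passed, at 0.78 for Ifit1, 1.52 for Ifit2 and 0.79 for Ifit3 (limma adjusted p = 0.0154, 0.0101 and 0.0131). In that fit the KO and WT arrays share no scan, so genotype and scan cannot be told apart, and 25.1% of all genes were called higher.

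In the oligoadenylate synthetase family, Oas1a and Oas2 rose. Both make the oligoadenylate messenger that activates RNase L upon double-stranded RNA. Oas1a, by probe A_55_P1998943, read 0.70, 0.32 and 0.63 in KO, against -0.14, -0.47 and -0.28 in WT. Every KO array lay above every WT array, and the difference was 0.85 (SE 0.15, 1.80-fold higher in KO, limma adjusted p = 0.0137). A second Oas1a probe gave 0.86, again with no overlap. Oas2 read -0.32, -0.20 and -0.32 in KO, against -0.81, -0.79 and -0.89 in WT. The KO arrays stood close together above WT, with KO replicate 2 the highest, and the difference was 0.55 (SE 0.09, 1.47-fold higher in KO, limma adjusted p = 0.0124). The Oas1a call was lost when KO replicate 3 (limma adjusted p = 0.066) or WT replicate 3 (0.0683) was left out, and the Oas2 call without the same arrays (0.0605 and 0.0761). With scan as a block Oas2 stayed called (0.63, limma adjusted p = 0.0357) and Oas1a did not (0.62, limma adjusted p = 0.0653).

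The other 3 synthetase genes did not pass. Oas3, a further active synthetase, read -1.76, -0.36 and -1.62 in KO, against -1.38, -1.61 and -1.55 in WT. Its KO replicate 2 stood apart above all other arrays, where most members had that array lowest in KO. The Oas3 difference was 0.27 over all arrays (limma adjusted p = 0.60) and 1.15 with scan as a block (limma adjusted p = 0.0266). Oasl1 and Oasl2 encode synthetase-like proteins, and Oasl1 is known in mice as a brake on the translation of Irf7. Oasl2 read -0.92, -2.15 and -1.04 in KO, against -1.54, -1.45 and -1.41 in WT. KO replicates 1 and 3 lay above WT and KO replicate 2 below, so that the difference was 0.09 over all arrays (limma adjusted p = 0.844) and -0.69 with scan as a block (limma adjusted p = 0.0364). Oasl1 read 1.21, 0.86 and 1.08 in KO, against 1.04, 1.09 and 1.02 in WT, with a difference of 0.00 (SE 0.12), the groups overlapping.

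Rsad2 had the smallest adjusted p-value of the higher members. It encodes viperin, a radical-SAM enzyme that makes a chain terminator of viral RNA synthesis. Its probe, A_52_P670026, read -1.08, -1.50 and -1.14 in KO, against -2.46, -2.22 and -2.48 in WT. The lowest KO array lay above the highest WT array by more than the spread of either group. The difference was 1.15 (SE 0.15, 2.21-fold higher in KO, limma adjusted p = 0.00829), and 0.89 with scan as a block (limma adjusted p = 0.0353). Of the fits without 1 array, the Rsad2 call was lost in that without WT replicate 3 (limma adjusted p = 0.054).

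None of the other antiviral effectors passed. Ifi44 encodes a cytosolic interferon-induced protein and read -1.16, -1.72 and -1.26 in KO, against -2.09, -1.61 and -1.84 in WT. The groups overlapped by KO replicate 2, and the difference was 0.46 (SE 0.20, limma adjusted p = 0.122). Parp14, an ADP-ribosyltransferase, read 2.39, 2.12 and 2.35 in KO, against 2.19, 1.82 and 1.89 in WT (difference 0.32, limma adjusted p = 0.132). Bst2, or tetherin, which holds budding virions at the cell surface, read 3.26, 3.18 and 3.23 in KO, against 3.21, 2.60 and 2.94 in WT (difference 0.31, limma adjusted p = 0.193). In both genes WT replicate 1 stood as high as the KO arrays, or nearly so. Ifi35, a partner of NMI, read -1.03, -1.26 and -1.07 in KO, against -1.03, -1.60 and -1.32 in WT (difference 0.19, limma adjusted p = 0.398). Ifitm3, which blocks virus entry at endosomes, read 3.78, 3.62 and 3.79 in KO, against 3.65, 4.06 and 3.88 in WT (difference -0.13, limma adjusted p = 0.473). KO and WT arrays of Ifi35 and Ifitm3 were interleaved.

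Of the nucleic acid sensors, Ifih1 rose. It encodes MDA5, the cytosolic sensor of long double-stranded RNA. Ifih1 read 1.75, 1.44 and 1.60 in KO, against 1.10, 1.01 and 1.04 in WT. All KO arrays lay above WT with a gap wider than either group's spread. The difference was 0.55 (SE 0.11, 1.46-fold higher in KO, limma adjusted p = 0.0204), and 0.38 with scan as a block (limma adjusted p = 0.0909). The Ifih1 call was lost without KO replicate 1 (limma adjusted p = 0.0581), KO replicate 3 (0.0858), WT replicate 2 (0.0696) or WT replicate 3 (0.0952). Ddx58, which encodes RIG-I, the sensor of short RNA with a triphosphate end, read 0.70, 0.13 and 0.51 in KO, against 0.34, -0.13 and 0.03 in WT. KO replicate 2 fell inside the WT range, and the difference was 0.37 (SE 0.20, limma adjusted p = 0.188). Dhx58, or LGP2, their relative without a signalling domain, read -0.41, -1.25 and -0.67 in KO, against -0.71, -0.62 and -0.79 in WT (difference -0.07, limma adjusted p = 0.82). Zbp1, the sensor of Z-form nucleic acid, read -0.72, -1.39 and -0.88 in KO, against -0.82, -0.94 and -0.76 in WT (difference -0.16, limma adjusted p = 0.547). Both of these had KO replicate 2 below all 5 other arrays and the rest mixed.

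Gbp2 fell among the interferon-inducible GTPases, while the rest of that group did not pass. These GTPases coat the vacuoles of intracellular bacteria and parasites. Gbp2, by probe A_51_P203955, read -1.85, -2.42 and -1.94 in KO, against -1.56, -0.71 and -0.85 in WT. All KO arrays lay below WT, with WT replicate 1 the nearest. The difference was -1.03 (SE 0.27, 2.05-fold lower in KO, limma adjusted p = 0.0368), and -1.38 with scan as a block (limma adjusted p = 0.0665). The Gbp2 call held without WT replicate 1 and was lost in the other 5 fits that left out an array, with limma adjusted p-values from 0.0542 to 0.126. Under the 4 other normalisations Gbp2 was not called (limma adjusted p = 0.0544 to 0.0953), and with normexp its difference was -0.51. Gbp3 read 0.37, -0.22 and 0.15 in KO, against -0.25, -0.52 and -0.43 in WT. Its KO arrays all lay above WT, KO replicate 2 narrowly, and the difference was 0.50 (SE 0.17, limma adjusted p = 0.0732).

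The immunity-related GTPases Irgm1, Irgm2, Igtp and Iigp1 shared a layout. Irgm1, Irgm2 and Igtp guard host membranes and hold the effector Iigp1 in check. Irgm2 read 2.29, 1.43 and 2.06 in KO, against 1.54, 1.30 and 1.43 in WT (difference 0.50, limma adjusted p = 0.144). Igtp read 2.24, 1.09 and 1.91 in KO, against 1.70, 1.26 and 1.49 in WT (difference 0.26, limma adjusted p = 0.53). Iigp1 read 4.66, 4.17 and 4.55 in KO, against 4.03, 4.22 and 4.10 in WT (difference 0.35, limma adjusted p = 0.129). In each, KO replicates 1 and 3 lay above all WT arrays and KO replicate 2 lay inside or below the WT range. So it was for Irgm1, at 2.16, 1.52 and 1.95 in KO, against 1.67, 1.84 and 1.69 in WT (difference 0.15, limma adjusted p = 0.545).

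The chemokines Cxcl9 and Cxcl10, which draw T cells and NK cells through CXCR3, did not pass. Cxcl9 read -0.92, -1.22 and -0.996 in KO, against -0.98, -1.18 and -0.94 in WT. The groups were interleaved, with a difference of -0.01 (SE 0.12, limma adjusted p = 0.935). Cxcl10 read -1.57, -2.54 and -1.77 in KO, against -1.43, -1.99 and -1.76 in WT. Its KO replicate 2 was the lowest array and the other KO arrays lay within the WT range (difference -0.23, limma adjusted p = 0.552).

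In class I presentation Tap1 fell and its partners did not pass. Tap1 and Tap2 form the transporter that carries peptides into the endoplasmic reticulum. Tap1, by probe A_51_P100327, read -3.22, -2.86 and -3.18 in KO, against -1.88, -1.11 and -1.49 in WT. The highest KO array lay about a full log2 unit below the lowest WT array, and the difference was -1.59 (SE 0.22, 3.02-fold lower in KO, limma adjusted p = 0.00922). With normexp it was -0.68, still called (limma adjusted p = 0.0119). With scan as a block it was -1.37 (limma adjusted p = 0.0546), and the Tap1 call was also lost without WT replicate 3 (limma adjusted p = 0.0545). Tap2 read 0.88, 0.63 and 0.75 in KO, against 0.84, 0.35 and 0.60 in WT, overlapping (difference 0.16, limma adjusted p = 0.457). Tapbp, the tapasin that bridges the transporter to class I, read 1.51, 1.09 and 1.54 in KO, against 1.09, 0.97 and 1.04 in WT. KO replicate 2 met the highest WT array, and the difference was 0.35 (limma adjusted p = 0.12).

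The class I chains themselves did not pass the test. B2m, the shared light chain, read 7.12, 6.51 and 6.98 in KO, against 6.91, 7.33 and 7.13 in WT, overlapping (difference -0.25, SE 0.20, limma adjusted p = 0.355). The heavy chain H2-K1 read 6.88, 6.76 and 6.87 in KO, against 6.76, 6.70 and 6.75 in WT (difference 0.10, SE 0.09, limma adjusted p = 0.391). The heavy chain H2-D1 read 4.97, 4.70 and 4.90 in KO, against 4.75, 4.46 and 4.58 in WT (difference 0.26, SE 0.12, limma adjusted p = 0.155). The KO arrays of H2-K1 lay narrowly above WT, and those of H2-D1 overlapped WT. Neither has a settled direction. With quantile normalisation, cyclic loess and normexp the differences were -0.16, -0.19 and -0.14 for H2-K1 and -0.02, -0.02 and -0.11 for H2-D1. Class I heavy chain genes are near-identical over long stretches, and whether these probes also bind other class I transcripts was not tested.

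**Figure D2:**
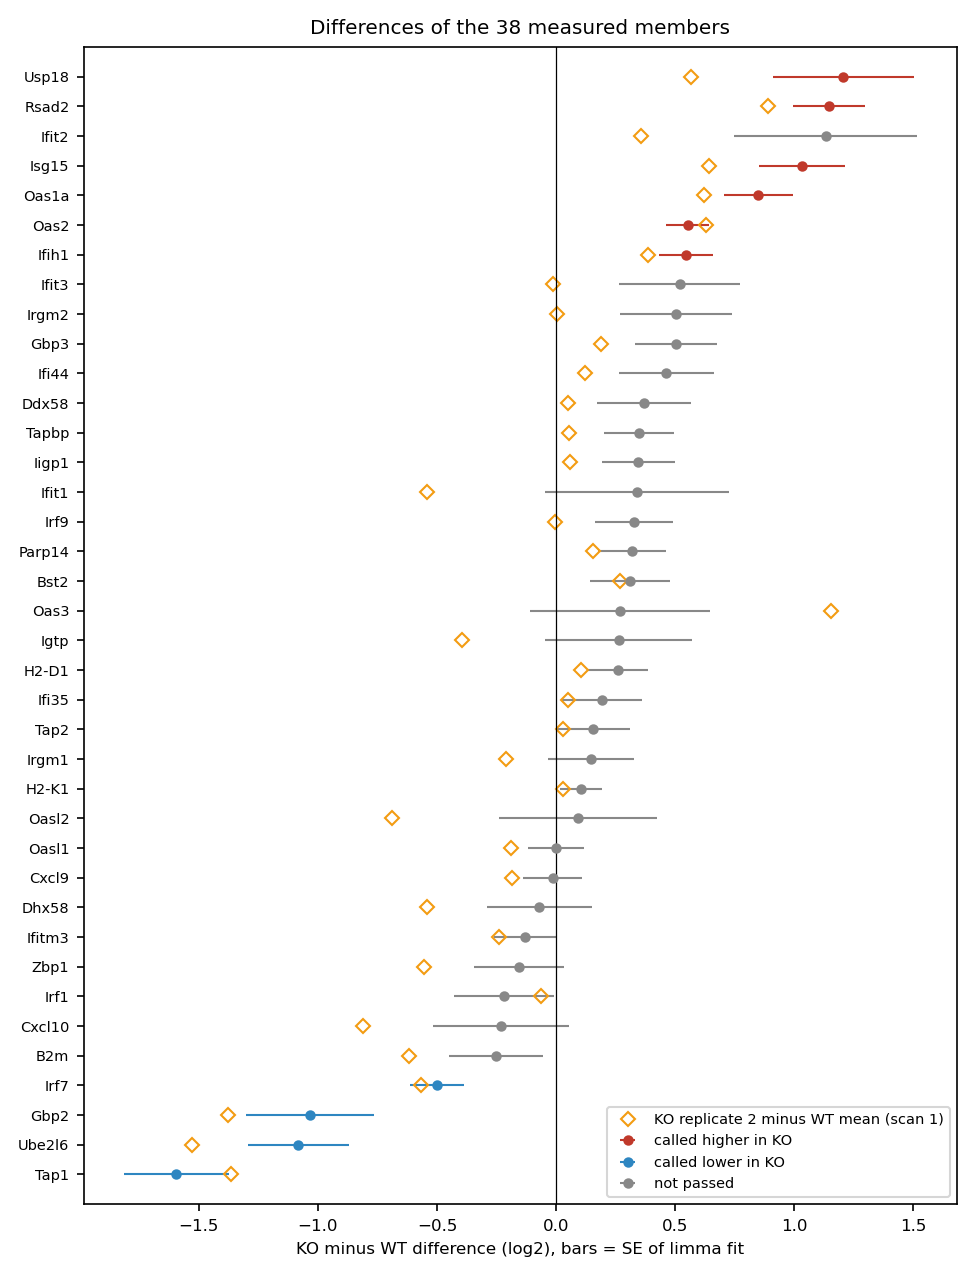
KO minus WT difference of each of the 38 measured members on the log2 scale, with filled points for the limma estimate and bars for its SE (3 KO against 3 WT arrays). Open diamonds show KO replicate 2 minus the WT mean, the comparison inside scan 1, and run from -1.53 for Ube2l6 to 1.15 for Oas3.

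One layout recurred across roles. KO replicate 2 was the lowest KO array in 34 of the 38 members, or 89.5%, and in 45.3% of all genes. Some other lists shared it, at 9 of 10 hepatocyte, 10 of 11 Kupffer cell and macrophage and 8 of 9 endothelial markers. So did 23 of 29 further antigen processing and class I genes and 34 of 46 other interferon-stimulated genes. It was less common in 6 of 16 signalling and regulatory genes, 3 of 8 T and NK cell and 2 of 7 dendritic cell markers. Neutrophil markers had it in 1 of 7 and B cell markers in 0 of 5. The exceptions among the members were Irf1, Oas2, Oas3 and Tap1. In 15 members, or 39.5%, KO replicates 1 and 3 both lay above all WT arrays while KO replicate 2 did not. That layout was found in 9.26% of all genes and in 5 of 11 Kupffer cell and macrophage markers. It held in 9 of 29 further antigen processing and class I genes (31.0%) and in 5 of 46 other interferon-stimulated genes (10.9%). The median member stood 0.42 above the WT mean on KO replicate 1 and 0.35 on KO replicate 3, but 0.02 on KO replicate 2. Over all genes the same medians were 0.06, 0.09 and 0.08. Under the 4 other normalisations KO replicate 2 was lowest in 32 to 35 members, against 42.4% to 61.1% of all genes. Over the members, the SD of the difference between arrays was 0.15 for KO replicates 1 and 3, 0.53 for KO replicates 1 and 2, and 0.41 for KO replicates 2 and 3. Between WT arrays it was 0.21 to 0.36. Over all genes KO replicate 2 also stood apart, with an SD of 0.68 against KO replicate 1 and 0.62 against KO replicate 3, while KO replicates 1 and 3 differed with an SD of 0.33. KO replicate 2 is the sole KO array of scan 1, so that this sample and its scan cannot be told apart.

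**Figure D3:**
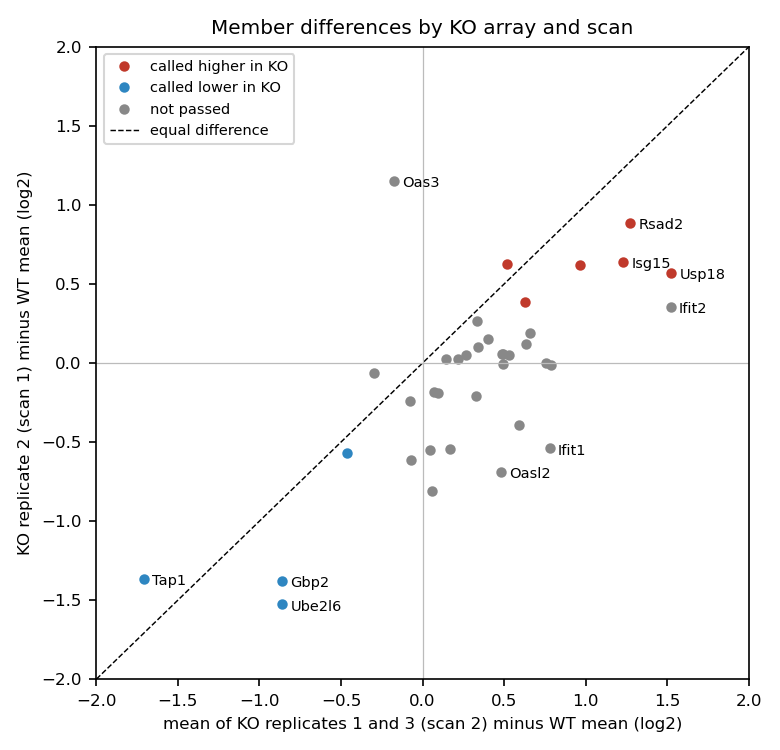
Each measured member by the mean of KO replicates 1 and 3 (scan 2) minus the WT mean, on the horizontal axis, and KO replicate 2 (scan 1) minus the WT mean, on the vertical axis, both log2. Most points lie below the dashed line of equal difference, with Oas3 far above it at 1.15 on the vertical axis.

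The number of calls turned on that array and on the scan. Each call with scan as a block rests on KO replicate 2 as the only KO array compared with WT. With scan as a block, Isg15, Oas2, Oas3 and Rsad2 were called higher, beside 5.08% of all genes, and Ube2l6 and Oasl2 lower, beside 4.68% of all genes. Of these, 3 of the 4 higher and 1 of the 2 lower were called without the block. The median member difference under the block was 0.02, and that of all genes 0.08. Without KO replicate 2, 17 members were called higher and 3 lower. Those 17 were the 6 called over all arrays with Irf9, Ifit1, Ifit2, Ifit3, Oasl2, Ifi44, Gbp3, Igtp, Irgm2, Iigp1 and Tapbp, and the 3 lower were Irf7, Ube2l6 and Tap1. In that fit the KO and WT arrays share no scan, and 5728 genes (25.1%) were called higher and 5069 (22.2%) lower. Leaving out WT replicate 3 gave 0 calls in either direction by limma, with 11 members (28.9%) and 31.7% of all genes at an unadjusted p under 0.05. Over all genes that fit called 1.49% higher and 1.21% lower. Leaving out KO replicate 3 gave 1 member higher and 1 lower, beside 2.09% and 2.28% of all genes. Leaving out WT replicate 2 gave 3 higher and 2 lower, beside 5.2% and 4.70%. The counts were 4 higher and 2 lower when KO replicate 1 was dropped, beside 6.51% and 5.23%, and 5 higher and 4 lower when WT replicate 1 was, beside 15.4% and 11.0%.

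The pathway around the members was read from related lists of 133 genes, of which 115 passed the filter on low values. Of these, 19 were called higher (16.5%) and 10 lower (8.70%), and their median difference was 0.15. Both shares lie below those of all genes, 17.4% higher and 12.2% lower, so these counts are no result about the pathway either. The scan block left 5 called higher and 5 lower. Among 12 interferon and receptor genes, Ifngr1 rose and Ifng was called lower. Ifng, the type II interferon made by T cells and NK cells, read -5.88, -5.91 and -5.65 in KO, against -2.48, -3.31 and -3.23 in WT. Its probe was above background on every WT array and on no KO array, so it was at least 2.09-fold lower in KO. Ifng passed the filter through its WT arrays alone and had to differ, so that its limma adjusted p of 0.00565 supports nothing. Ifngr1, the ligand-binding chain of its receptor, read 2.51, 2.25 and 2.53 in KO, against 1.91, 1.38 and 1.66 in WT, with no overlap (difference 0.78, SE 0.17, limma adjusted p = 0.0224). The scan block ended the Ifngr1 call (limma adjusted p = 0.128). Ifnar1, Ifnar2 and Ifngr2, the other receptor chains, differed by 0.32, 0.23 and 0.35 and did not pass (limma adjusted p = 0.0791, 0.101 and 0.0504). In each the KO arrays all lay above WT, as they did in 30.6% of all genes. The sign turned for Ifnar1 with the mean of its probes and for Ifnar2 with cyclic loess. Ifnb1, the founding type I interferon, was well above background on 1 WT array only.

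Among 16 signalling and regulatory genes, 6 were called higher and 2 lower. Socs3, a feedback inhibitor of cytokine receptors that STAT3 induces, read 0.07, 0.16 and 0.11 in KO, against 1.55, 1.09 and 1.33 in WT. The KO arrays stood tightly together below WT, and Socs3 fell by 1.21 on the log2 scale (SE 0.14, limma adjusted p = 0.00678). Irf5, a factor of inflammatory cytokine genes, fell by 0.53 (limma adjusted p = 0.0141). Trim24, Ptpn11 and Pias1, which restrain STAT signalling or interferon-stimulated transcription, rose by 1.07, 0.50 and 0.46 (limma adjusted p = 0.031, 0.0136 and 0.0212), although for Pias1 the mean of its probes gave -0.18. Under the scan block Socs3, Irf5 and Ptpn11 stayed called, while Pias1 (limma adjusted p = 0.0892) and Trim24 did not, Trim24 at a difference of 0.58 (limma adjusted p = 0.171). Stat2 read 2.65, 3.04 and 2.83 in KO, against 2.75, 3.00 and 2.82 in WT, interleaved (difference -0.02, limma adjusted p = 0.923). Among 13 sensor pathway genes, Trim25, the ubiquitin ligase that activates RIG-I, rose by 0.61 and the kinase gene Ikbke fell by 0.52 (limma adjusted p = 0.0138 and 0.0179). The block left Trim25 called (limma adjusted p = 0.0499) and not Ikbke (0.0755).

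Among 46 other interferon-stimulated genes, 8 were called higher and 4 lower. Isg20, an exonuclease of single-stranded RNA, read 2.45, 2.17 and 2.44 in KO, against 0.81, 0.82 and 0.74 in WT. Every KO array lay more than a log2 unit above WT, and the difference was 1.56 (SE 0.11, 2.95-fold higher in KO, limma adjusted p = 0.00417). It was 1.38 with scan as a block (limma adjusted p = 0.021). Ifi204, a DNA-binding protein of an interferon-inducible family, rose by 0.89 and Ifitm1, a relative of Ifitm3, by 0.71 (limma adjusted p = 0.0128 and 0.0143). Xaf1, a proapoptotic partner of XIAP, fell by 1.22 and Helz2, a helicase coactivator of nuclear receptors, by 0.82 (limma adjusted p = 0.0129 and 0.0135). Helz2 stayed called with scan as a block, and Ifi204, Ifitm1 and Xaf1 did not (limma adjusted p = 0.0505, 0.0683 and 0.06).

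Among 29 further genes of antigen processing and class I, 3 were called higher and 2 lower. Erap1, the aminopeptidase that trims peptides to class I length, read -0.68, -0.77 and -0.65 in KO, against -1.54, -1.70 and -1.61 in WT, without overlap (difference 0.91, SE 0.10, 1.89-fold higher in KO, limma adjusted p = 0.00624). Canx, the chaperone calnexin that folds new heavy chains, read 2.77, 3.11 and 2.69 in KO, against 3.98, 4.67 and 4.37 in WT (difference -1.49, SE 0.21, 2.80-fold lower in KO, limma adjusted p = 0.00969). Pdia3, the oxidoreductase of the peptide-loading complex, also fell, by 0.60 (limma adjusted p = 0.035). These groups did not overlap in any of the 3 genes. Lnpep, an endosomal aminopeptidase, rose by 0.42 and the non-classical class I gene H2-T24 by 0.32 (limma adjusted p = 0.0388 and 0.0439). Erap1 stayed called with scan as a block, and Canx, Pdia3, Lnpep and H2-T24 did not (limma adjusted p = 0.0553, 0.0686, 0.185 and 0.087). The interferon-inducible proteasome subunits Psmb8 and Psmb9 differed by 0.20 and -0.06, and Nlrc5, the transactivator of class I genes, by 0.16, and none of them passed (limma adjusted p = 0.227, 0.761 and 0.427).

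**Figure D4:**
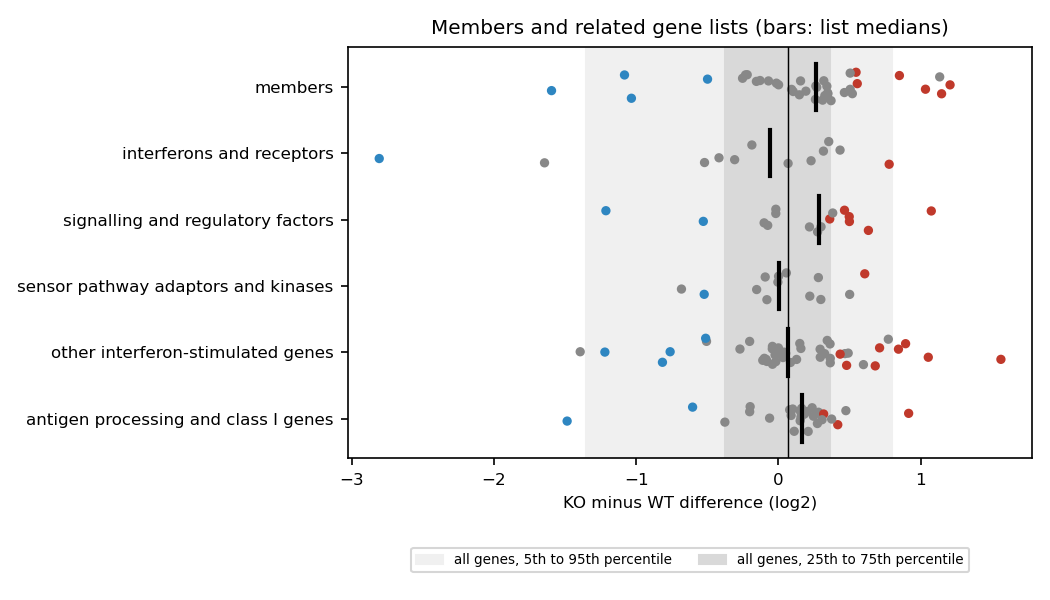
KO minus WT difference (log2) of the members and of each related list, 1 point per gene, red where called higher in KO, blue where called lower and grey where not passed. Heavy bars mark list medians, 0.27 for the members, and the shaded bands and thin line give the spread and the median, 0.06, of all 22810 genes.

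Markers of the cell types in liver also moved between the groups, and several of these calls were lost under the scan block. In that fit 2 of 8 T and NK cell markers were called lower (4 without it). Called higher were 0 of 11 Kupffer cell and macrophage markers (3 without it), 2 of 9 endothelial (5) and 1 of 10 hepatocyte markers (4). Of 7 neutrophil markers, 4 were called higher with the block and 4 without. Over all genes, 5.08% were called higher and 4.68% lower with the block, and 17.4% and 12.2% without it. Markers of T cells, NK cells and dendritic cells summed lower in every KO array than in every WT array. The summed linear signal of the 8 T and NK cell markers that passed the filter, of 12 listed, was 25.8 to 29.1 times the array's 75th percentile in KO, against 44.4 to 48.5 in WT. Of these, Gzma (difference -2.08), Cd4, Cd3e and Nkg7 fell, and the other 4 did not pass the test. Dendritic cell markers, 7 of 9 listed, summed to 4.27 to 5.50 in KO, against 6.63 to 8.70 in WT. In this list Cd74 fell (difference -1.74), and the other 6 did not pass. Of the 7, 1 had a positive difference, and 3 had KO replicate 2 above the WT mean. Cd209a was above background on no KO array and passed the filter through its WT arrays alone. For the 6 plasmacytoid dendritic cell markers, whose cells make much type I interferon, the sums overlapped at 236.6 to 272 in KO, against 247 to 273 in WT. Pacsin1 was called lower and the other 5 did not pass. A linear sum is weighted to its brightest probes, and whether these report such cells was not tested.

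Macrophage, endothelial and neutrophil markers summed higher in every KO array than in every WT array. Kupffer cell and macrophage markers, 11 of 12 listed, summed to 47.2 to 62.0 in KO, against 35.9 to 36.2 in WT. Marco, Cd5l and Clec4f rose by 1.76, 0.71 and 0.53, and the other 8 did not pass. The 9 endothelial markers summed to 29.8 to 39.5 in KO, against 23.9 to 24.5 in WT. Of these 5 were called higher, among them the scavenger receptor Stab2 by 0.99. Neutrophil markers, 7 of 9 listed, summed to 8.33 to 15.3 in KO, highest on KO replicate 2, against 6.61 to 7.26 in WT. Of these 4 were called higher, S100a8 by 2.72. The other 3 did not pass, and 2 of them had a negative difference, 1 with every KO value below every WT value. Hepatocyte markers overlapped, summing to 3002 to 3592 in KO, against 2743 to 3088 in WT, with 4 of 10 higher. General leukocyte markers, 7 of 8 listed, also overlapped, at 9.17 to 11.6 in KO, against 7.18 to 9.35 in WT, with Tyrobp higher. KO replicate 2, the array on which most members were lowest in KO, also gave the lowest KO sum of the hepatocyte, Kupffer, endothelial, dendritic, T and NK cell and leukocyte lists. What part these cell markers have in the member and Ifng differences was not tested.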

How the data were processed

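Liver RNA of 3 Sec15 KO and 3 WT samples was measured on single-colour Agilent arrays, with groups and replicate numbers from the labels. The deposited spot intensity is the processed signal of Agilent's Feature Extraction, which per the file headers is background-subtracted and was not scaled between arrays. The deposited flags, other values coded 0 or 1, mark spots that are well above background, saturated or outliers, per the file headers.

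Outlier spots (178 to 236 of 43020 per array) were dropped, spots of a probe averaged as log2, and the array's 75th percentile over the 39429 probes subtracted. Probes well above background on at least 3 of 6 arrays were kept, 27024 in all, and the probe with the highest mean stood for its gene. RefSeq (GRCm38.p6) named 27234 probes from their accession. KO and WT were compared with limma 3.58.1 in R 4.3.3 (with jsonlite 2.0.0 and the package data.table, version 1.17.8) over 22810 genes, 15544 of them with a symbol. The fit was tested on simulated data. Promoters were searched in Python 3.11.15 with pandas 2.3.3, and figures drawn with matplotlib 3.10.9 and numpy 2.4.6.

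The members and all lists were chosen with earlier results of these data known. All members are named. From each related list up to 5 genes with the smallest p among those called were named, plus Stat2, Nlrc5, Psmb8, Psmb9 and the interferon and receptor genes given. From each cell marker list up to 3 were named, some items that these rules name are not reported here, and Nkg7, Cd209a, Alb, Ttr and Apoa1 were added after their values were seen. Arrays of the same scan time in the headers were taken as a scan. Alternatives were 4 other scalings (normexp with an offset of 50), other filters, the mean of a gene's probes, eBayes with trend and robust, scan or replicate number as a block, WT replicates 1 and 2 averaged, since their deposited names share a number, and each array left out. The number of arrays limits the precision.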

Additional observations from a re-analysis of the deposited data

How the results depend on the processing

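All 10 called members kept their sign in every alternative run. Rsad2 was called in 16 of 18 alternatives, Oas2 and Tap1 in 15, Isg15, Oas1a and Ube2l6 in 14, Ifih1 in 12, Usp18 in 8, Irf7 in 7 of 17 and Gbp2 in 5. These counts and the next include scan 1 alone, where a lost call says nothing about a gene, since it has 1 KO array. Over the values of the named genes, 918 kept direction and call, 156 lost the call, 21 gained it and 54, in 21 genes, changed sign. In 2 of those 54 a call was involved, Oasl2 with scan as a block (-0.69) and Pias1 as the mean of its probes (-0.18). The rest were called under neither setting. With scan as a block, and equally in scan 1 alone, the sign turned for Irf9 (-0.0041), Ifit1 (-0.54), Ifit3 (-0.013), Oasl1 (-0.19), Igtp (-0.39), Irgm1 (-0.21) and Stat2 (0.18), and in scan 1 alone for Oasl2 (-0.69). Quantile normalisation turned Oasl1 (-0.087), Cxcl9 (0.040), H2-K1 (-0.16) and H2-D1 (-0.016). Median centring turned Dhx58 (0.049), Cxcl9 (0.10), Stat2 (0.10) and Psmb9 (0.057). Cyclic loess turned Oasl1 (-0.17), Irgm1 (-0.065), H2-K1 (-0.19), H2-D1 (-0.017), Nlrc5 (-0.056) and Ifnar2 (-0.028). Normexp turned Oasl1 (-0.080), Cxcl9 (0.073), H2-K1 (-0.14), H2-D1 (-0.11) and Tap2 (-0.013), and the mean of probes Ifnar1 (-0.22). Leaving out each array in turn gave -0.17 to 0.53 for Oas3, -0.080 to 0.097 for Oasl1, -0.13 to 0.48 for Oasl2, -0.25 to 0.17 for Dhx58, -0.29 to 0.044 for Zbp1, -0.087 to 0.071 for Cxcl9, -0.43 to 0.059 for Cxcl10, -0.12 to 0.075 for Stat2 and -0.17 to 0.053 for Psmb9. Members called lower numbered 2 with quantile normalisation, median centring, cyclic loess and the scan block, beside 11.1%, 9.88%, 12.5% and 4.68% of all genes. Members called higher numbered 4 with the scan block, beside 5.08% of all genes. Cyclic loess called 2464 genes higher and 2852 lower (46.4% higher, against 58.7% as reported), and median centring 5120 and 2253 (69.4% higher), moving the median of all genes by 0.12. With no filter, 2613 genes and 11 companion pathway genes (those of the related lists) were called higher in KO. The scan block called 1158 genes higher and 1067 lower, with 5 and 5 companion pathway genes. Scan 1 alone has 1 KO array, so only its differences are given, and they equal those with scan as a block. Leaving out each array in turn gave 0 to 17 members higher and 0 to 4 lower, 341 to 5728 genes higher and 276 to 5069 lower, and 2 to 36 companion pathway genes higher and 2 to 15 lower. The 0 came without WT replicate 3, where 11 members had an unadjusted p under 0.05 by limma. With the replicate number as a block, 12 companion pathway genes were called higher (19 without the block). That block called 6 members higher and 3 lower, beside 12.8% and 10.5% of all genes. Same-numbered samples correlated in their deviations at 0.11, 0.11 and 0.02, and differently numbered ones at -0.11 to 0.04. With 3 samples per group these values cannot decide whether the numbers mark pairs. With WT replicates 1 and 2 averaged, 5 members were higher and 4 lower, beside 16.3% and 10.5% of all genes. The cause of these shifts was not tested. Dim probes limit Irf7, Ifit2 and Ifng.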
